A study of Mus musculus with 8 samples.

Results

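The genes of MHC class II antigen presentation were examined in whole colon after a transplant that causes acute graft-versus-host disease, the attack of donor T cells on the recipient's tissues. The 10 genes were listed by name: H2-Aa, H2-Ab1 and H2-Eb1, Cd74, H2-DMa and H2-DMb1, H2-Oa and H2-Ob, Ifi30, and Ciita. Of these, 9 were measured, each by 1 probe set, among 19505 genes in all, and Cd74 was not analysed here. The recipients were 8 wild-type BALB/c mice that had been lethally irradiated and transplanted on day 0 with bone marrow cells and T cells from C57BL/6 donors, so both groups share irradiation, transplant and disease. From day 0 to day 7, 4 mice were given PBS by mouth and 4 were given 1.2 mg/kg hBD-2 (human beta-defensin 2, an antimicrobial peptide of epithelia), and the colon was taken on day 7. Neither label nor protocol states how old the mice were. Each mouse gave 1 array, and with 4 mice a group the precision is limited.

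Class II molecules are pairs of an alpha and a beta chain on the surface of dendritic cells, macrophages and B cells, and, under interferon-gamma, of epithelial and endothelial cells, where they show peptides from endosomes to CD4 T cells. New pairs are held by the invariant chain, which endosomal proteases trim until H2-DM exchanges its last fragment for a peptide, and H2-DO restrains H2-DM. Transcription of the chains, H2-DM and the invariant chain depends on the coactivator Ciita, which is recruited to paired promoter elements, the X box and the Y box, by the RFX complex, CREB and NF-Y. In graft-versus-host disease the class II of the gut can display recipient antigens to donor T cells. BALB/c and C57BL/6 mice carry different class II alleles, so the colon may hold transcripts of both, and how well each probe set reads either allele was not tested. In bulk tissue, fewer cells of a type and less RNA per cell cannot be told apart.

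The promoters are shown because the shared X and Y elements are what ties most of these genes to Ciita. Sequences are from RefSeq, build GRCm38.p6, which is the C57BL/6J reference and so the donor strain. Promoters were found for 7 of the 10 listed genes and for the neighbouring class II genes H2-Eb2 and H2-DMb2. The search covered 250 bases before each annotated start on both strands, with AACNNATG for the core of the X box and TGATTGG for the Y box. The motifs do not overlap in these matches, and their letters were picked with these promoters in view, so the matches are a description. Capitals mark the matches, and every run is written 5′ to 3′ along the strand of the gene.
H2-Eb1 (chr17:34305766-34305824, plus strand): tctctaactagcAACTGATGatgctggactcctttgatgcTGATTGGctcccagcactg
H2-DMb1 (chr17:34153087-34153146, plus strand): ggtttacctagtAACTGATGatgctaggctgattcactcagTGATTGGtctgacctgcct
H2-DMb2 (chr17:34145116-34145175, plus strand): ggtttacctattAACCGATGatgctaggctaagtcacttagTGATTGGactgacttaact
H2-Eb2 (chr17:34325533-34325591, plus strand): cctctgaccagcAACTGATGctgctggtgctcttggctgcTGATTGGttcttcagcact
H2-Ob (chr17:34238808-34238864, plus strand): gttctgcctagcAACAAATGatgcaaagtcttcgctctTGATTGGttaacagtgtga
H2-Aa (chr17:34287855-34287918, minus strand): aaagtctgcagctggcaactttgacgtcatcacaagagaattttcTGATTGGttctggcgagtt
H2-Oa (chr17:34092289-34092352, plus strand): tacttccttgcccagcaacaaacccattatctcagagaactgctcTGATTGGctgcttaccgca

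In the first 5 of these promoters the X core stood before the Y box, with 26 to 29 bases from the start of one to the start of the other. In H2-Aa and H2-Oa the Y box letters were found and the X core letters were not in this window. Neither motif was found in the window of Ifi30 or in either window of H2-DMa. Of all 32851 promoters of this length, 7.71% held the X core, 7.23% the Y box, and 0.0517% (17 promoters) both on 1 strand with the Y box starting 20 to 45 bases after the X core. The 5 class II genes are among those 17.

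**Figure D1:**
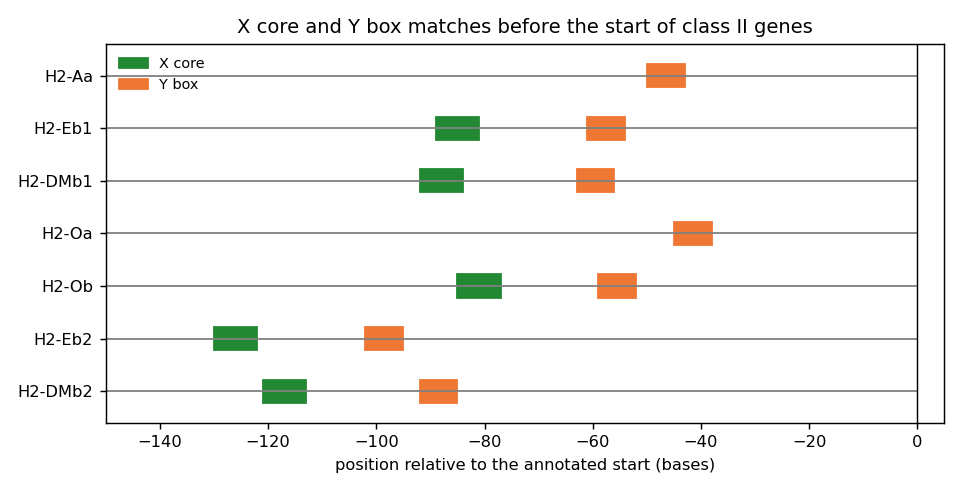
Position of X core (green) and Y box (orange) matches before the annotated start (0, in bases) of 7 class II genes. In 5 genes the X core precedes the Y box by 26 to 29 bases, start to start, and H2-Aa and H2-Oa show the Y box alone.

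None of the 9 genes passed the test of hBD-2 against PBS mice in limma with adjustment over all genes, where 0.0410% of all genes (8 of 19505) passed an adjusted p of 0.05. None had an unadjusted p under 0.05 either, a level reached by 11.8% of all genes. The groups overlapped in each of the 9, whereas 6.41% of all genes had no overlap, 2.80% with hBD-2 above PBS and 3.60% with hBD-2 below it. The differences, hBD-2 minus PBS on the log2 scale, ran from -0.19 to 0.18 with a median of 0.040, beside a median of 0.012 over all genes. The lowest adjusted p among the 9 was 0.487, for H2-Ob.

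Along the first principal component of all genes, hBD-2 1 and hBD-2 3 lay at 25.2 and 25.4 and the remaining 6 arrays at -14.9 to -2.45. The same pair was high in genes of the posterior colon, whose mean log2 value relative to each gene's own mean was 0.86 and 0.64 against -0.33 to -0.14 elsewhere. The list is mixed: Hoxb13, Hoxd13, Scnn1b and Scnn1g were highest in this pair, whereas Hoxd10 was 4.69 and 4.63 there but 5.93 and 5.55 in the other two hBD-2 mice, while Hoxa13, Hoxd9, Hoxd11 and Hoxd12 did not set the pair apart upward. The array medians over all probe sets were 6.77 to 6.82. All 14 epithelial markers, among them Epcam and Vil1, lay above the median of all genes in mean level, as did 11 of 13 macrophage markers, but only 2 of 11 B cell markers. The deposited log2 values hold no zeros, the lowest being 2.76, so no marker can be called absent.

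H2-Aa encodes the alpha chain of the class II molecule I-A. It measured 10.81, 10.79, 10.84 and 10.37 log2 units in PBS mice 1 to 4 and 11.11, 10.45, 11.02 and 10.81 in hBD-2 mice 1 to 4. The highest values were in hBD-2 1 and hBD-2 3, and PBS 4 and hBD-2 2 were the lowest arrays of their groups. The difference was 0.14 (SE 0.15, 95% interval -0.20 to 0.49, adjusted p = 0.748 by limma). That interval spans from 1.15-fold lower to 1.40-fold higher in hBD-2 mice.

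H2-Ab1 encodes the partner beta chain of I-A. Its values were 10.09, 10.20, 10.24 and 9.88 in the PBS mice and 10.36, 9.70, 10.39 and 10.01 in the hBD-2 mice. The hBD-2 values lay on both sides of the whole PBS range, with mice 1 and 3 above it and mouse 2 below it. The group means were 10.10 ± 0.16 and 10.11 ± 0.33 (SD, n = 4 each), a difference of 0.012 (SE 0.15, 95% interval -0.33 to 0.35).

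H2-Eb1 encodes the beta chain of the second class II molecule, I-E. It stood at 9.57, 9.70, 9.57 and 9.24 in PBS mice and at 9.85, 9.13, 9.81 and 9.45 in hBD-2 mice. The hBD-2 mice again bracketed the PBS mice. The difference was 0.040 (SE 0.16, 95% interval -0.32 to 0.40), so that differences beyond 1.25-fold lower or 1.32-fold higher lie outside the interval. The alpha chain gene of I-E, H2-Ea, was not analysed here.

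H2-DMa and H2-DMb1 encode the H2-DM pair, which loads peptides. H2-DMa measured 7.85, 7.78, 7.89 and 7.44 in PBS mice and 8.03, 7.30, 7.83 and 7.85 in hBD-2 mice. H2-DMb1 measured 9.73, 9.71, 9.77 and 9.29 in PBS mice and 9.97, 9.03, 9.99 and 9.72 in hBD-2 mice. In both genes PBS 4 and hBD-2 2 were low in their groups, and H2-DMb1 had the widest range of the 9 genes, 1.94-fold from the lowest to the highest array. The differences were 0.010 (SE 0.16) and 0.051 (SE 0.20), with 95% intervals of -0.34 to 0.36 and -0.40 to 0.50.

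H2-DMb2 is a close copy of H2-DMb1 next to it on the chromosome, so probes of the pair may read both. Its difference of 0.071 (SE 0.16, adjusted p = 0.888 by limma) lay near that of H2-DMb1. H2-Eb2, a beta chain gene beside H2-Eb1, was at 5.04 ± 0.18 in PBS and 5.24 ± 0.12 in hBD-2 mice (SD, n = 4 each), a difference of 0.21 (SE 0.10, adjusted p = 0.472 by limma). Neither passed, and the groups overlapped in both.

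H2-Oa and H2-Ob form H2-DO, which restrains H2-DM and is made mainly by B cells and thymic epithelium. H2-Oa measured 5.34, 5.34, 5.68 and 5.49 in PBS mice and 5.49, 5.10, 5.37 and 5.11 in hBD-2 mice. It was the only one of the 9 with a mean below that of PBS, at -0.19 (SE 0.11, 95% interval -0.45 to 0.060, adjusted p = 0.533 by limma). H2-Ob measured 5.24, 5.31, 5.26 and 5.43 in PBS mice and 5.34, 5.54, 5.38 and 5.72 in hBD-2 mice, a difference of 0.18 (SE 0.096, 95% interval -0.032 to 0.40). PBS 4 kept the groups of H2-Ob from separating, being above hBD-2 1 and hBD-2 3. The 2 subunits of H2-DO thus had mean differences of opposite sign, neither of which passed.

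Ifi30 encodes GILT, the interferon-inducible enzyme that reduces disulfide bonds of antigens in endosomes. It measured 10.73, 10.99, 10.86 and 10.70 in PBS mice and 10.88, 10.90, 10.87 and 10.78 in hBD-2 mice. All 4 hBD-2 values fell within the PBS range. It varied least of the 9, by 1.22-fold over the 8 arrays, and its difference of 0.036 (SE 0.082) had the narrowest interval, -0.15 to 0.22.

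Ciita, the coactivator that class II transcription depends on, measured 6.89, 6.94, 7.28 and 6.55 in PBS mice and 7.24, 6.74, 7.29 and 6.64 in hBD-2 mice. PBS 3, hBD-2 1 and hBD-2 3 were high and PBS 4 and hBD-2 4 low, so the groups overlapped along nearly the whole range. The difference was 0.062 (SE 0.18, 95% interval -0.34 to 0.47, adjusted p = 0.917 by limma).

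**Figure D2:**
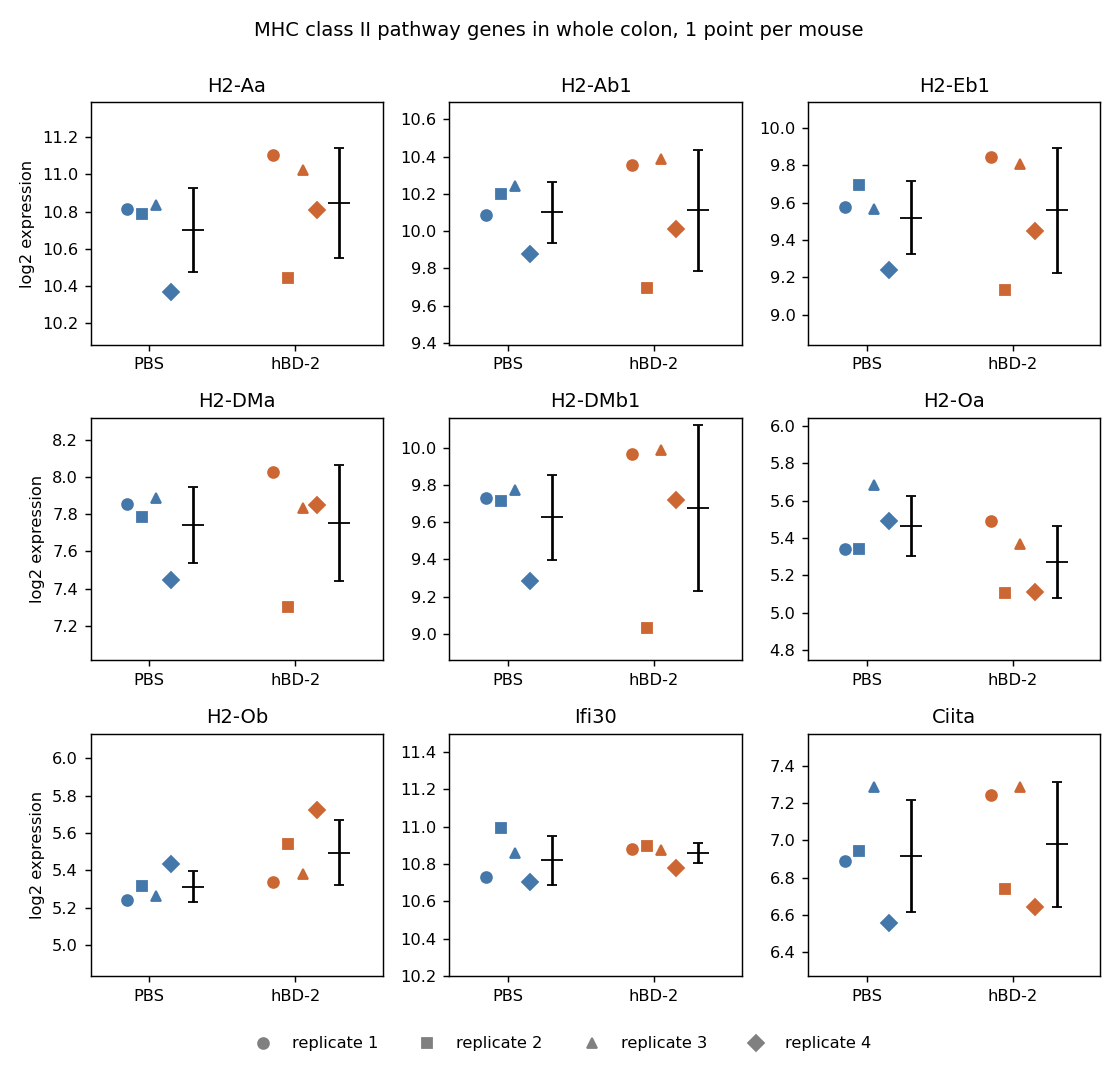
Log2 expression of the 9 genes in each mouse (symbols by replicate number, blue PBS, orange hBD-2), with the mean and SD of each group (n = 4) in black; every panel spans the same number of log2 units. In H2-Aa, H2-Ab1, H2-Eb1 and H2-DMb1, hBD-2 1 and hBD-2 3 are the highest arrays, and hBD-2 2 lies below the mean of both groups.

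The sign of most differences rested on single arrays. With PBS 4 alone left out 7 of the 9 genes were lower in hBD-2 mice, with a median of -0.059. With hBD-2 1 or hBD-2 3 alone left out 6 of the 9 were lower, with medians of -0.047 and -0.041. Leaving out hBD-2 2 alone moved the median most and the other way, to 0.16 with 1 of the 9 lower. Without PBS 1, PBS 2, PBS 3 or hBD-2 4 alone the median was 0.052 to 0.080. When both of these hBD-2 arrays (1 and 3) were left out, the median difference of the 9 genes was -0.22. Of the 9, 7 were lower in the 2 remaining hBD-2 mice than in PBS mice, beside 44.6% of all genes. The arrays left out were the highest in the mean of H2-Aa, H2-Ab1 and H2-Eb1, at 0.30 and 0.27 relative to each gene's own mean. Leaving them out could therefore only lower the hBD-2 means of these genes, and the direction of the shift is no finding. H2-Ab1 was then at -0.25 (SE 0.13, 95% interval -0.55 to 0.059), H2-Eb1 at -0.23, Ciita at -0.22 and H2-DMb1 at -0.25, with adjusted p of 0.495 to 0.652 by limma. H2-Oa and H2-Ob moved further apart, to -0.36 (SE 0.12) and 0.32 (SE 0.10), with adjusted p of 0.275 and 0.263 by limma. Among hBD-2 mice, 1 and 3 were the highest in H2-Oa (5.49 and 5.37) and the lowest in H2-Ob (5.34 and 5.38). Leaving them out could therefore only widen these differences, and this move is no finding either. With the mean of the posterior colon genes as a covariate, itself highest in hBD-2 1 and hBD-2 3, the median was -0.27. No gene of the 9 passed in any of these settings, the posterior colon list is mixed as given above, and the part that colon position plays in these values was not tested.

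**Figure D3:**
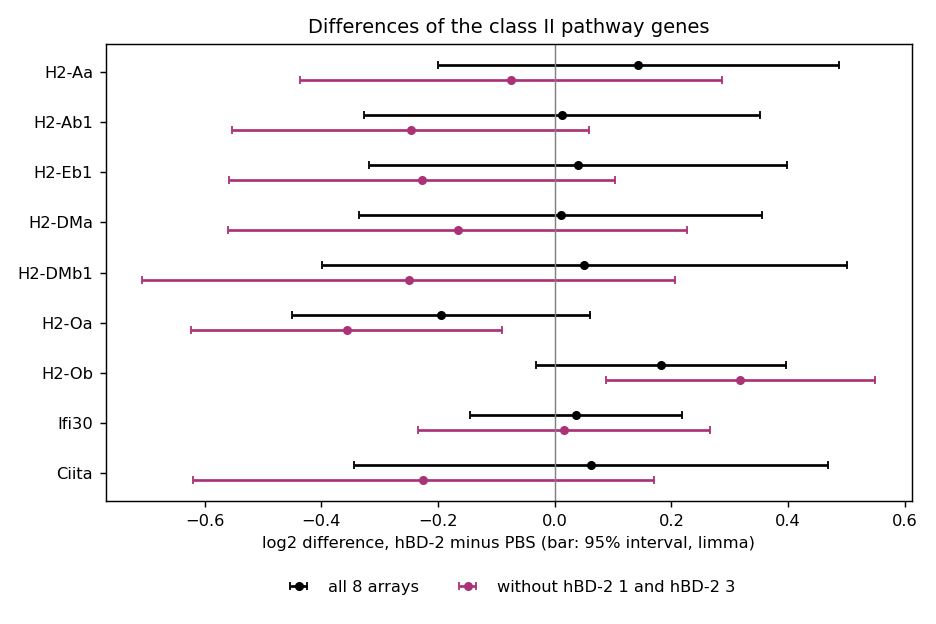
Log2 difference, hBD-2 minus PBS, of the 9 genes with 95% intervals from limma, over all 8 arrays (black) and without hBD-2 1 and hBD-2 3 (purple). Over all arrays every interval includes 0. Without the pair the intervals of H2-Oa (-0.62 to -0.090) and H2-Ob (0.087 to 0.55) do not, before adjustment. The pair held the highest hBD-2 values of H2-Oa and the lowest of H2-Ob, so leaving it out could only widen these differences.

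Most of these genes varied together from mouse to mouse. Over the 8 arrays the 15 pairs among H2-Aa, H2-Ab1, H2-Eb1, H2-DMa, H2-DMb1 and Ciita correlated at r = 0.66 to 0.97, with a median of 0.91. The 21 pairs that involve H2-Oa, H2-Ob or Ifi30 ran from -0.73 to 0.57, with a median of 0.17. The lowest of these was H2-Oa with H2-Ob. These 6 and 3 genes were set apart after their values were seen, all arrays share 1 normalization, and the correlations are descriptions.

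The mean of H2-Aa, H2-Ab1 and H2-Eb1, relative to each gene's own mean, was used as a class II level per mouse. It was 0.018, 0.088, 0.075 and -0.31 in the PBS mice and 0.30, -0.38, 0.27 and -0.050 in the hBD-2 mice. With this level H2-DMb1 correlated at r = 0.97 (rho = 0.83), H2-DMa at 0.91 (rho = 0.64) and Ciita at 0.83 (rho = 0.81), over 8 arrays. Without PBS 4 and hBD-2 2, the 2 arrays farthest from the median, r was 0.93, 0.51 and 0.81, so that of H2-DMa rested largely on those arrays. Over the 6 arrays other than hBD-2 1 and hBD-2 3 it was 0.96, 0.95 and 0.69. Of all genes, 0.984% had an r above 0.8 with this level, and 6 of the 9 did, 3 of which define it.

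H2-Oa (r = 0.40, rho = 0.52) and Ifi30 (r = 0.35, rho = 0.36) followed the class II level weakly, and H2-Ob ran against it (r = -0.45, rho = -0.48). For deviations from the group means, r was 0.57 for H2-Oa, 0.33 for Ifi30 and -0.68 for H2-Ob. H2-Ob holds the X core and Y box pair in its promoter, as H2-Eb1 and H2-DMb1 do. Of the neighbours with the pair, H2-Eb2 had r = -0.17 (rho = -0.31) and H2-DMb2 had r = 0.98 (rho = 0.93). By mean level, H2-Oa, H2-Ob and H2-Eb2 lay at percentiles 29.1, 29.6 and 26.3 of all genes. H2-Eb1, H2-DMb1 and H2-DMb2 lay at 88.0, 89.1 and 87.0. Little signal in the first 3 limits what their r can show, and a relation to the promoter motifs was not tested.

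The spread was wider in hBD-2 mice for 8 of the 9 genes, Ifi30 being the exception, and for 56.6% of all genes. For H2-DMb1 the SD was 0.45 against 0.23 in PBS mice, and for H2-Ab1 0.33 against 0.16 (n = 4 each). Of the 9 genes, hBD-2 2 was the lowest array in 5 and PBS 4 in 3, and hBD-2 1 and hBD-2 3 were the highest in 3 each. The difference in spread was not tested.

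**Figure D4:**
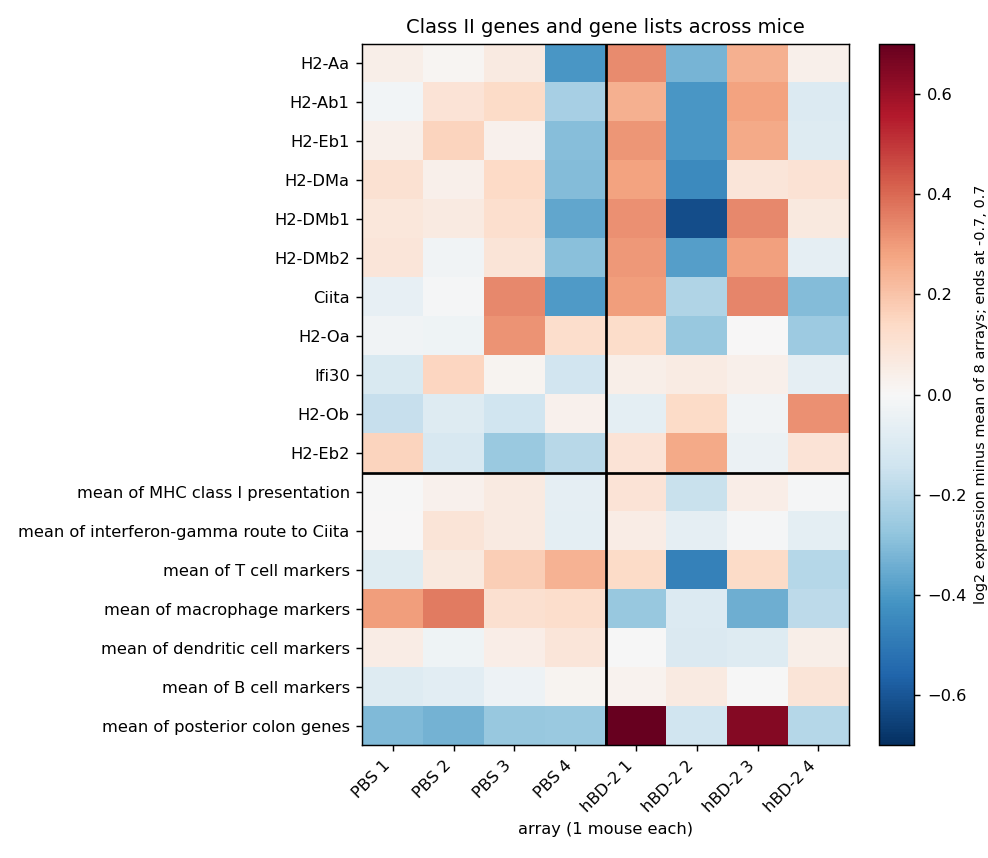
Log2 expression minus the mean of the 8 arrays for class II genes (above the line) and for the mean of 7 gene lists (below it), 1 column per mouse. The top rows share their pattern, with hBD-2 1 and hBD-2 3 high and PBS 4 and hBD-2 2 low; the means of the posterior colon genes in hBD-2 1 and hBD-2 3 are 0.86 and 0.64.

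Genes outside all lists whose pattern over the 8 arrays was most like the class II level, among those above the median in mean level, were the proliferation marker Mki67 (r = 0.96, rho = 0.95), Ankrd40 (0.96, rho = 0.98), the lipid transfer protein gene Vps13a (0.95, rho = 0.95), the RNA helicase gene Ythdc2 (0.94, rho = 0.93) and Ctdspl (0.94, rho = 0.90). Without PBS 4 and hBD-2 2 their r was 0.97, 0.86, 0.94, 0.91 and 0.90. These genes were picked by their r over the same arrays, so a high r in part of them is no check. Of all genes, 0.174% (34 of 19505) had an r above 0.9 with this level. None of the 5 picked genes passed between the groups.

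MHC class I genes varied alongside class II from mouse to mouse. The mean of 17 genes of class I presentation, which include the heavy chains H2-K1 and H2-D1, the light chain B2m, the transporter genes Tap1 and Tap2 and the immunoproteasome subunits, correlated with the class II level at r = 0.93 (rho = 0.93), and at 0.82 without PBS 4 and hBD-2 2. None of the 17 passed in limma or had an unadjusted p under 0.05, and their median difference was -0.018. H2-D1 was at 0.13 (SE 0.064, adjusted p = 0.460), with 4 of 4 hBD-2 mice above all PBS mice, H2-M3 at -0.16 (SE 0.13) and Psmb10 at 0.090 (SE 0.070). With that pair of hBD-2 arrays (1 and 3) left out, the median was -0.095 and 14 of 17 were lower, beside 44.6% of all genes. The pair had the highest class I means of the hBD-2 mice, 0.094 and 0.044 relative to each gene's own mean. Leaving it out could therefore only lower the hBD-2 mean of this list, and the shift is no finding.

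Upstream of Ciita, interferon-gamma acts through its receptor and the kinases Jak1 and Jak2, with Irf1 among its targets. Of 8 measured genes of this route none passed in limma or had an unadjusted p under 0.05. The median difference was -0.050 and the range -0.19 to 0.093. Jak1 measured 7.89, 7.98, 8.00 and 7.87 in PBS mice and 7.84, 7.83, 7.74 and 7.78 in hBD-2 mice, a small difference of -0.14 (SE 0.068, adjusted p = 0.460 by limma) without overlap. Socs1, an inhibitor of the route, was at -0.19 (SE 0.14). The mean of the 8 genes, the inhibitor Socs1 included, correlated with Ciita at r = 0.72 over the 8 arrays and at 0.84 without hBD-2 1 and hBD-2 3. This did not single out the route. In the same sets of arrays Ciita had r = 0.75 and 0.65 with the class I mean, and 0.63 and 0.65 with the mean of housekeeping genes.

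The 7 subunits of the factors that hold Ciita on the promoter, Rfx5, Rfxap and Rfxank of RFX, Nfya, Nfyb and Nfyc of NF-Y, and Creb1, lay between -0.091 and 0.079. None passed in limma or had an unadjusted p under 0.05. The lowest p belonged to Nfyc at -0.091 (SE 0.075) and Nfyb at -0.084 (SE 0.088).

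The endosomal proteases that process antigens and the invariant chain, listed together with the protease inhibitor Cst3, had a median difference of -0.23, against 0.040 for the class II genes, a contrast between lists that was not tested. Of 10 measured genes none passed in limma over all genes, but 7, Cst3 included, were lower and 1 higher in hBD-2 mice at an unadjusted p under 0.05, levels that 5.98% and 5.85% of all genes reached. The asparaginyl endopeptidase Lgmn was at 11.18, 11.25, 11.004 and 10.995 in PBS mice and at 10.58, 10.87, 10.50 and 10.76 in hBD-2 mice. Each hBD-2 mouse had less than the lowest PBS mouse, and the difference was -0.43 (SE 0.10, adjusted p = 0.158 by limma).

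Cst3, the secreted inhibitor of cathepsins, was at -0.24 (SE 0.064, adjusted p = 0.207 by limma), and the groups did not overlap. Ctsl, encoding cathepsin L, was at -0.47 (SE 0.15). Ctse, encoding cathepsin E, went the other way, from 4.83 ± 0.24 in PBS to 5.80 ± 0.64 in hBD-2 mice (SD, n = 4), a difference of 0.97 (SE 0.27, adjusted p = 0.219 by limma). Its values in hBD-2 1 and hBD-2 3, 6.28 and 6.42, were above those of hBD-2 2 and hBD-2 4, 5.12 and 5.38. Once hBD-2 1 and hBD-2 3 were left out, the median of the list was -0.19. Then 8 genes were lower and 2 higher, and 4 of the 10 had an unadjusted p under 0.05. In that setting 44.6% of all genes were lower and 12.8% had such a p.

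Among 6 genes of class II turnover and traffic, none passed in limma and 1 had an unadjusted p under 0.05, beside 11.8% of all genes. That gene was Marchf1, the ubiquitin ligase that removes class II and Cd86 from the surface of dendritic cells and B cells, at 7.08, 6.94, 6.50 and 6.75 in PBS mice and 6.47, 6.34, 6.25 and 6.78 in hBD-2 mice. The groups overlapped, and the difference was -0.36 (SE 0.14, adjusted p = 0.368 by limma).

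The invariant chain also serves as a receptor for the cytokine MIF and its homologue, encoded by Ddt, with Cd44 as a signalling partner. None of 5 such genes passed in limma, and 1 had an unadjusted p under 0.05, beside 11.8% of all genes. Ddt was at 7.70, 7.93, 7.93 and 7.64 in PBS mice and 8.32, 8.00, 8.40 and 8.09 in hBD-2 mice, a difference of 0.40 (SE 0.11, adjusted p = 0.219 by limma) without overlap. Cd44 was at -0.31 (SE 0.15), with hBD-2 1 and hBD-2 3 at 10.04 each and the other 6 arrays between 10.46 and 10.81.

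On the side of the T cell, Cd4, the co-receptor that binds class II, was at 8.32, 8.56, 8.37 and 8.66 in PBS mice and 7.84, 7.82, 8.11 and 7.70 in hBD-2 mice. The highest hBD-2 mouse was under the lowest PBS mouse, and the difference was -0.61 (SE 0.11, adjusted p = 0.0782 by limma). Lag3, an inhibitory receptor for class II, was at 0.087 (SE 0.12). Over all genes 5.98% were lower at an unadjusted p under 0.05. Of 9 T cell markers, Cd4 included, none passed in limma and 2 were lower at such a p, the other being Cd3d at -0.30 (SE 0.13). Their median was -0.19, and -0.43 without hBD-2 1 and hBD-2 3, with 9 of 9 then lower and 6 at an unadjusted p under 0.05, where 44.6% of all genes were lower and 12.8% had such a p. That pair had the highest T cell means of the hBD-2 mice, 0.13 and 0.14 relative to each gene's mean. Leaving it out could therefore only lower the hBD-2 mean of this list, and the shift is no finding. The mean of the T cell markers, relative to each gene's mean, was lowest in hBD-2 2 at -0.47, where class II was also lowest, but highest in PBS 4 at 0.24, where class II was low.

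Of 8 costimulatory genes of the presenting cell none passed in limma and 2 were lower at an unadjusted p under 0.05, beside 5.98% of all genes. Cd274, which encodes the inhibitory ligand PD-L1, was at -0.34 (SE 0.097, adjusted p = 0.226 by limma) without overlap. Cd80 and Cd86, ligands of the activating receptor Cd28, were at -0.43 (SE 0.16) and -0.39 (SE 0.19), with overlap.

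Class II can come from several cell types of the colon, and their markers were read beside it. Of all genes, 46.5% were lower in hBD-2 mice, 5.98% were lower at an unadjusted p under 0.05, and 0.0410% passed in limma. Of 13 macrophage markers 12 were lower, 9 at such a p, and 1 passed in limma over all genes. That gene was Aif1, at 7.28, 7.23, 6.83 and 6.95 in PBS mice and 5.90, 6.22, 6.31 and 6.04 in hBD-2 mice (-0.96, SE 0.13, adjusted p = 0.0467); with any 1 array left out its adjusted p was 0.0540 to 0.227 and the call was lost. Mrc1 was at -0.72 (SE 0.11, adjusted p = 0.0608), C1qa at -0.66 and C1qc at -0.55. The summed linear level of the list was 3937 to 4814 in PBS and 2728 to 3333 in hBD-2 mice, without overlap, while that of the 9 class II genes was 5513 to 7071 and 5561 to 7817. The median differences were -0.55 for the macrophage markers and 0.040 for the class II genes, and the difference between the lists was not tested. Leaving out hBD-2 1 and hBD-2 3 gave a macrophage median of -0.35, with 12 of 13 lower and 6 at an unadjusted p under 0.05. In that setting 44.6% of all genes were lower and 12.8% had such a p. Over the 8 arrays the macrophage mean and the class II level correlated at r = -0.26 (rho = -0.31), at -0.54 without PBS 4 and hBD-2 2, and at 0.51 without hBD-2 1 and hBD-2 3, so the sign rested on those arrays.

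Of 14 dendritic cell markers none passed in limma, with 3 lower and 1 higher at an unadjusted p under 0.05, beside 5.98% and 5.85% of all genes. Itgax, which macrophages also express, was at -0.73 (SE 0.13, adjusted p = 0.0782), Sirpa at -0.34 and Clec10a at -0.40, both shared with macrophages too. The cytokine receptor Flt3, a marker of dendritic cells and their precursors, was at 0.40 (SE 0.12), from 3.97 ± 0.18 to 4.36 ± 0.19 (SD, n = 4), low in the range of all genes. The median of the list was -0.018, with 5 of 14 higher, and it was 0.055, with 8 of 14 higher, once hBD-2 1 and hBD-2 3 were left out. The summed linear level, 2094 to 2233 in PBS and 1721 to 1962 in hBD-2 mice, weighs the brightest genes most, among them Sirpa, Clec10a and Itgax.

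Of 11 B cell markers 9 were higher in hBD-2 mice, 2 of them at an unadjusted p under 0.05, and none passed in limma. Over all genes 10428 of 19505 were higher, and 5.85% were higher at such a p. Only 2 of the 11 markers lay above the median of all genes in mean level. The median difference was 0.012 over all genes and -0.015 without the lowest 50% of genes, so these shares are not matched for level. Fcmr, the receptor for IgM, was at 0.28 (SE 0.086, adjusted p = 0.245 by limma) and Cd79b, a chain of the B cell receptor, at 0.22 (SE 0.073), both without overlap. Cd79b was low in the range of all genes, with means of 3.81 in PBS and 4.03 in hBD-2 mice. Cd37 was at -0.26 (SE 0.11). The summed level overlapped, with 585.0 to 629.3 in PBS and 603.5 to 628.2 in hBD-2 mice. H2-Ob correlated with the mean of these markers at r = 0.88 over the 8 arrays and 0.94 without hBD-2 1 and hBD-2 3. This did not single out the B cell list, since H2-Ob had r = -0.93 with the mean of the housekeeping genes in both sets of arrays, and, without that pair, -0.91 with the fibroblast and -0.87 with the macrophage markers. H2-Oa correlated with the mean of the T cell markers at r = 0.85 and 0.86, and had r = -0.47 with the B cell markers.

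**Figure D5:**
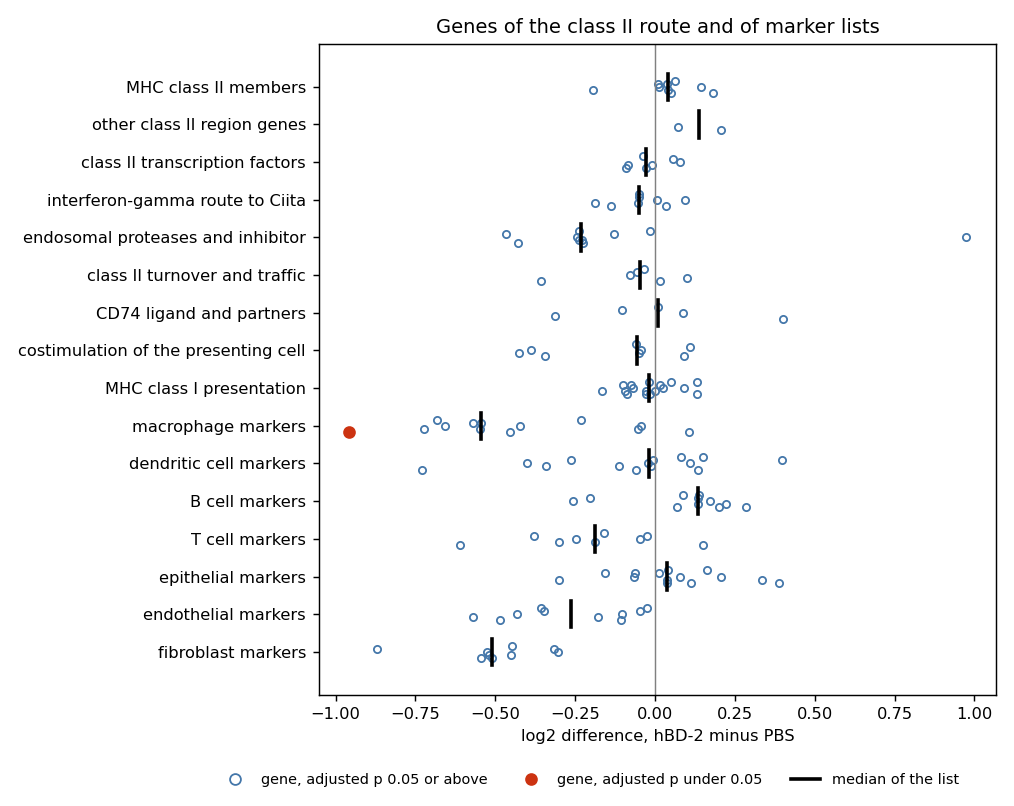
Log2 difference, hBD-2 minus PBS, of each gene (points) in 16 lists, with the list median as a bar; the filled red point is Aif1, the one gene of these lists with an adjusted p under 0.05. The class II genes lie within 0.20 of 0, whereas the medians of the macrophage and fibroblast markers are -0.55 and -0.51.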

How the data were processed

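The authors deposited log2 values of 22203 probe sets on 8 arrays, made with oligo and RMA per the submitters' processing notes, with no version. RMA makes the arrays' distributions alike, so a shift of all genes would not show. No source used here names the genome build of the array. Through the platform's annotation 19572 probe sets had 1 gene name and 2631 had none. For genes with several, the probe set with the highest mean was kept, leaving 19505 genes, all matched to the RefSeq gene table (GRCm38.p6).

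All genes were fitted with lmFit and eBayes of limma 3.58.1 (R 4.3.3), taking PBS from hBD-2, in a two-sided test with p adjusted by Benjamini-Hochberg and a threshold of 0.05; the code was tested on simulated data. Lists are described by counts and medians without a set test. The members and the 20 lists (179 of 193 entries measured) were chosen with earlier results of these data known. Values are given for all members and, in other lists, for up to 4 genes with the lowest p. Alternatives were an intensity trend with robust prior, filters on dim genes, centring, repeated quantile normalization, averaged probe sets, array weights, a replicate block, leaving out arrays, and a posterior colon covariate. Figures used matplotlib 3.10.9.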

Additional observations from a re-analysis of the deposited data

Results flagged for a closer look

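In the PBS group, PBS 4 lay far below the other 3 mice for 2 class II genes. H2-Aa was 10.37 log2 units in PBS 4, with the nearest PBS mouse at 10.79, and H2-DMb1 was 9.29, with the nearest at 9.71. The gaps were 0.895 and 0.880 of the range of the group, above Dixon's limit for 4 samples at 95%. The 2 genes vary together, so these need not be separate events. Of the 22 groups examined, chance alone gives such a gap in about 1 in 20.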

How the results depend on the processing

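None of the 9 class II genes passed under any of the 18 alternatives run, though H2-Oa and H2-Ob were not tested where the lowest 50% of genes were left out. The number of genes past the threshold in limma over all genes was 8, and it was 91 with an intensity trend and robust prior, 16 and 47 without the lowest 25% and 50% of genes, 4 with quantile normalization repeated, 68 with array weights, 0 without hBD-2 1 and hBD-2 3, 0 with the posterior colon covariate, and 0 to 11 with single arrays left out. With the replicate block it was 0, with 2566 genes at an unadjusted p under 0.05. Same-numbered arrays deviated together at r = -0.15, 0.14, 0.24 and 0.045, and not every array correlated best with its own number. The labels do not say whether same-numbered mice share anything, and correlations among so few arrays cannot settle it. The median of the class II genes was -0.22 without hBD-2 1 and hBD-2 3, -0.27 with the covariate, and -0.059 to 0.16 with single arrays left out. In those first 2 settings the sign turned for H2-Aa (-0.075 and -0.11), H2-Ab1 (-0.25 and -0.29), H2-Eb1 (-0.23 and -0.27), H2-DMa (-0.17 and -0.20), H2-DMb1 (-0.25 and -0.29), H2-DMb2 (-0.19 and -0.24), Ciita (-0.22 and -0.29) and the posterior colon gene Hoxd13 (-0.085 and -0.30). The covariate also turned Nfyb (0.011), Cd44 (0.047) and Lag3 (-0.051). With single arrays left out, the sign turned in at least 1 setting for H2-Ab1 (-0.079 to 0.15), H2-Eb1 (-0.056 to 0.18), H2-DMa (-0.089 to 0.16), H2-DMb1 (-0.062 to 0.27), H2-DMb2 (-0.018 to 0.21), Ciita (-0.059 to 0.18), Ifi30 (-0.0029 to 0.093) and Lag3 (-0.031 to 0.15). The cause of these turns was not tested. Of the 49 genes given values, 28 kept direction and side of the threshold under all 18 alternatives. The values give no signal over background, and H2-Oa, H2-Ob and H2-Eb2 lie in the lower 30% of genes by mean, where little signal limits what a difference can show.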

Other observations

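Of all genes, 46.5% were lower in hBD-2 mice, and 5.98% were lower and 5.85% higher at an unadjusted p under 0.05. All 9 fibroblast markers were lower, each with such a p and none past the threshold in limma. Vim, an intermediate filament gene of mesenchymal cells, was at -0.54 (SE 0.095, adjusted p = 0.0782 by limma). All 10 endothelial markers were lower, 5 at an unadjusted p under 0.05 and none past, with the endothelial cadherin gene Cdh5 at -0.48 (SE 0.12). Of 14 epithelial markers 10 were higher, 3 of them at an unadjusted p under 0.05 and none past, with the carbonic anhydrase gene Car4 at 0.39 (SE 0.12) and the chloride exchanger gene Slc26a3 at 0.33 (SE 0.11). Of 6 genes of type 3 innate lymphoid cells, which can carry class II, none passed and 2 were lower at an unadjusted p under 0.05, with the interleukin-7 receptor Il7r, also a T cell gene, at -0.63 (SE 0.089, adjusted p = 0.0535 by limma). Without hBD-2 1 and hBD-2 3, 9 of 9 fibroblast markers were lower, 8 at an unadjusted p under 0.05, but 3 of 10 endothelial markers were higher and 4 were under 0.05. In that setting 11 of 14 epithelial markers were higher with 0 under 0.05, and 4 of 6 innate lymphoid genes were higher with 1 under 0.05, beside 12.8% of all genes.

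Among posterior colon genes Hoxd12 was at 0.36 (SE 0.086, adjusted p = 0.158 by limma) and Hoxd13 at 0.83 (SE 0.42). The mean of the posterior colon genes correlated with the class II level at r = 0.64 (rho = 0.21) over the 8 arrays, at 0.91 without PBS 4 and hBD-2 2, and at -0.71 without hBD-2 1 and hBD-2 3, so that no single relation describes the arrays.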
